A study of Nicotiana tabacum with 78 samples.

Results

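Cell division and microtubule genes were described in the roots and leaves of tobacco (Nicotiana tabacum), and in roots 16 of the 21 genes, beside 24.9% of all genes in the table, stood lowest in untopped plants of the unmodified cultivar. The genes were taken from a deposited table of 2075 genes by their annotation: a protein or tomato name with kinesin, cyclin, cell division, mitotic, tubulin, DNA replication, DNA polymerase, centromere, kinetochore, spindle or microtubule, and without histone. This gave 21 genes, of which 13 were tubulins. Both names matched in 16 genes, the protein name alone in 2 and the tomato name alone in 3. The terms mitotic, DNA replication, DNA polymerase, centromere, kinetochore and spindle matched 0 genes, so the set holds mainly the tubulin cytoskeleton and few regulators of the cell cycle.

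Microtubules are hollow filaments built from dimers of one alpha- and one beta-tubulin. In plant cells they guide the deposition of cellulose at the cell cortex, mark the plane of division, pull the chromosomes apart in the spindle and carry vesicles to the new cell wall in the phragmoplast. Kinesins are motors that move along them, while D-type cyclins with their kinases drive entry into division and SIAMESE-RELATED proteins block those kinases. Topping, the removal of the flowering head, ends the dominance of the shoot apex and is known to induce alkaloid synthesis in tobacco roots.

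The plants were TN90, a burley cultivar that served as the untransformed control, and PMT1, PMT2 and PMT3, which are transgenic TN90 lines whose RNAi construct, driven by the constitutive 35S promoter, suppresses putrescine N-methyltransferase (PMT), the enzyme that commits putrescine to nicotine. Plants were grown in a greenhouse to flowering, and full-grown leaves and roots were collected from plants left untopped and from plants a day after topping. Of 78 samples, 77 fell into 16 groups of 4 or 5 (4 genotypes, 2 tissues, 2 treatments), and 1 PMT2 sample with contradictory tissue labels was assigned to none. Every value below is the authors' mean RPKM (reads per kilobase of gene, scaled to library size) of a group, without an error, so no difference could be set against the spread between plants and no test was run.

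The tissues matched their labels, with limits in the libraries. Of 16 genes named after photosynthetic proteins, 10 had all leaf groups above all root groups, 4 the reverse and 2 an overlap, 1 of the 16 was listed at 0 in a leaf group, and their summed level was 3188 to 4965 RPKM in leaf groups and 105 to 225 RPKM in root groups. The 5 PMT genes summed to 842 RPKM in topped TN90 roots and 90.7 RPKM in untopped TN90 roots, against 28.5 to 86.9 RPKM in roots of the suppressed lines. The 77 listed libraries held 22078414 to 150334394 reads in roots and 16299684 to 517291516 reads in leaves. The treatment labels of leaf and root contradict each other in 6 plants (4 PMT2 plants, 2 PMT3 plants). Topped PMT2 roots list 6 libraries for 5 labelled samples, and topped TN90 leaves list 3 for 4. One topped PMT2 root library had 95.9% of its reads mapped, against at most 88.1% in the other root libraries and at least 85.4% in leaf libraries, while the photosynthetic genes summed to 194 RPKM in that group. The part of these libraries in the group means below was not tested.

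The alpha-tubulins NITAB020682 and NITAB068249 were the most abundant members in roots. NITAB020682 averaged 121 RPKM over the 8 root groups and 8.69 RPKM over the 8 leaf groups. NITAB068249 followed with 76.5 RPKM in roots and 6.63 RPKM in leaves. These genes led the tubulin pool of both tissues on the alpha side, and RPKM allows levels of genes to be compared because it is scaled per length. NITAB043883 averaged 26.7 RPKM in roots and 3.91 RPKM in leaves, and NITAB022076 21 and 4.2 RPKM. All of these share the best tomato match Solyc08g006890.3.1, and since the authors let a read hit up to 10 places, the division of reads among the 4 genes is uncertain. The fifth alpha-tubulin, NITAB098749, has the tomato match Solyc04g077020.3.1 and was nearly a root gene, with 23.1 to 56.2 RPKM in roots (median 34.2) and 0.373 to 0.921 RPKM in leaves (median 0.516).

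The 8 beta-tubulins ranged more widely. NITAB011416 averaged 36.9 RPKM in roots and 20.1 RPKM in leaves, where it was the most abundant member. Its root range of 21.8 to 59.2 RPKM overlapped its leaf range of 10.8 to 29.0 RPKM. NITAB016756, which has the same tomato match (Solyc06g035970.3.1), had 17.1 to 50.7 RPKM in roots and 4.39 to 7.17 RPKM in leaves, with no overlap. The ratio of NITAB011416 to NITAB016756 was 1.12 to 1.27 over the root groups and 2.47 to 4.55 over the leaf groups, so the genes of the pair were near one level in roots and apart in leaves. NITAB012546 averaged 24 RPKM in roots and 4.09 RPKM in leaves, and NITAB069809 17.5 and 4.47 RPKM.

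The lesser beta-tubulins were scarce in leaves, at no more than 0.439 RPKM in any leaf group. NITAB074971 had 2.95 to 11.1 RPKM in roots (median 5.73) and at most 0.0359 RPKM in leaves, being listed at 0 in topped TN90 leaves. Its mean was 250.1 times higher in roots than in leaves, the highest ratio among the members. NITAB056399 and NITAB059065, which share the match Solyc10g085020.2.1, averaged 10.2 and 5.61 RPKM in roots against 0.283 and 0.272 RPKM in leaves. The scarcest tubulin, NITAB096768, named after a beta-6 chain and without a tomato match, averaged 1.26 RPKM in roots and 0.110 RPKM in leaves, and its ranges overlapped.

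Of the motors, the kinesin-like gene NITAB007425 had 2.91 to 7.74 RPKM in roots (median 5.06) and 0.0440 to 0.0888 RPKM in leaves (median 0.0709). NITAB061382, named after KIN-7A and annotated with cytokinesis by cell plate formation, had 1.76 to 5.40 RPKM in roots (median 2.60) and 0.0388 to 0.398 RPKM in leaves (median 0.172). In both, every root group lay above every leaf group. NITAB062764 and NITAB029067 are kinesin light chain-related by their tomato match, but their protein name is that of SEC, an O-GlcNAc transferase that modifies other proteins with a sugar, so their place among microtubule genes rests on one annotation. They averaged 4.18 and 4.17 RPKM in roots, and 0.0292 and 0.172 RPKM in leaves. Their ratio was 0.951 to 1.10 over the root groups and 0.101 to 0.327 over the leaf groups.

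The cyclin, the inhibitor gene, MAP70-1 and CDC48 were less tissue-bound than the motors, but not than every tubulin. The ratio of the root mean to the leaf mean was 4.18, 6.72, 3.00 and 3.27 in that order. It was 74.2 and 16.4 for the kinesins NITAB007425 and NITAB061382. For tubulins it ran from 1.84 (NITAB011416) to 250.1 (NITAB074971). NITAB056947, a cyclin D3-2, had 4.62 to 10.9 RPKM in roots (median 7.16) and 1.23 to 2.27 RPKM in leaves (median 1.84). NITAB042105, named after the cyclin-dependent kinase inhibitor SMR8 of the SIAMESE-RELATED family, had 1.61 to 7.64 RPKM in roots (median 4.53) and 0.388 to 0.974 RPKM in leaves (median 0.661). For both, the tissues did not overlap. NITAB040748, named after MAP70-1, which in Arabidopsis binds cortical microtubules, had 3.30 to 5.61 RPKM in roots (median 4.28) and 0.671 to 2.25 RPKM in leaves (median 1.44). NITAB064091 encodes a homolog of CDC48, an ATPase that pulls ubiquitinated proteins out of complexes, and had 1.51 to 3.70 RPKM in roots (median 2.71) and 0.0566 to 1.81 RPKM in leaves (median 0.552), with overlap.

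**Figure D1:**
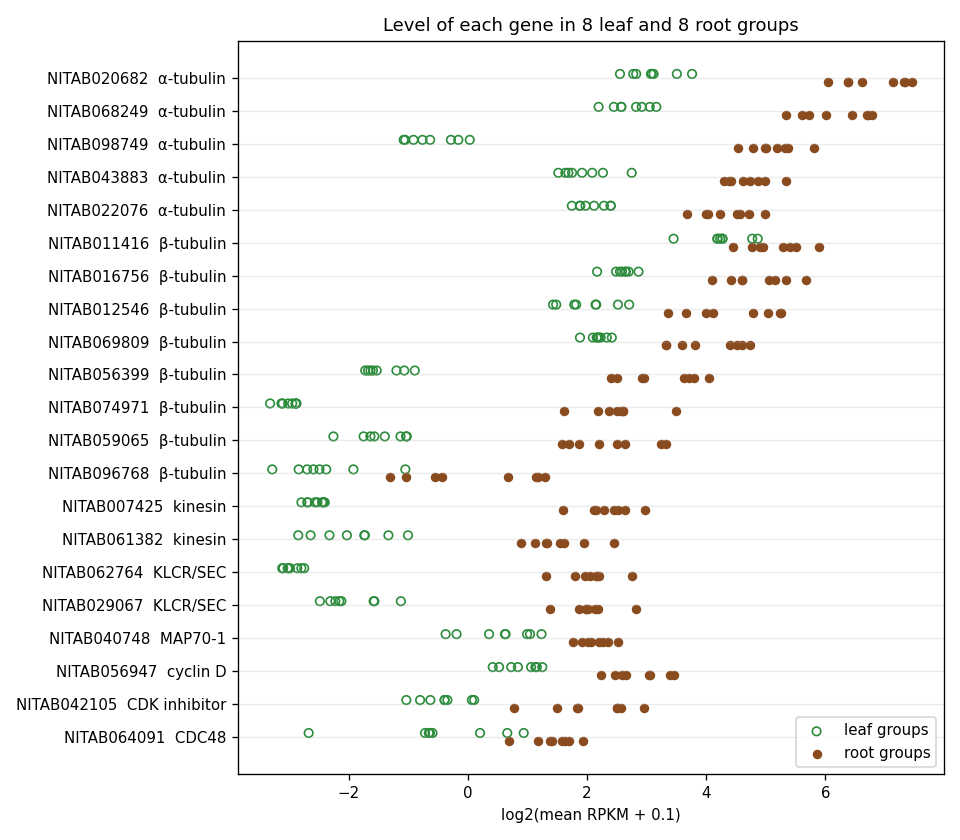
Level of each of the 21 genes, 1 row per gene, as log2(mean RPKM + 0.1), with 1 filled point for each of 8 root groups and 1 open point for each of 8 leaf groups. The points of both tissues overlap in NITAB011416, NITAB096768 and NITAB064091, and in the other 18 genes all root points lie to the right of all leaf points.

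In all, 18 of 21 members had their 8 root values above their 8 leaf values, and 0 had the reverse. The same held for 67.6% of the 2075 genes, which the authors had selected on root comparisons, and for 42 of 48 histone genes. When each group was centred on the table's median log2 value, which removes shifts of 2.57 to 3.48 between root and leaf, the count was 5 of 21. The share of the table was not counted after centring, so this count cannot be set against it. On that scale the members lay on both sides of the table's median in every comparison of root with leaf. In bulk tissue, fewer dividing cells and less RNA per cell cannot be told apart.

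The balance of the tubulin chains differed between tissues. Summed RPKM of the 5 alpha-tubulins was 161 to 412 in roots and 16.9 to 32.1 in leaves, and that of the 8 beta-tubulins 70.7 to 203 in roots and 27.5 to 43.0 in leaves. The alpha sum was 1.94 to 2.36 times the beta sum in root groups and 0.392 to 1.17 times in leaf groups, with no overlap. NITAB011416 alone made up 24.6 to 31.8% of the beta sum in roots and 39.4 to 67.5% in leaves. These sums cover only tubulins in the deposited table, not every tubulin of the genome.

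**Figure D2:**
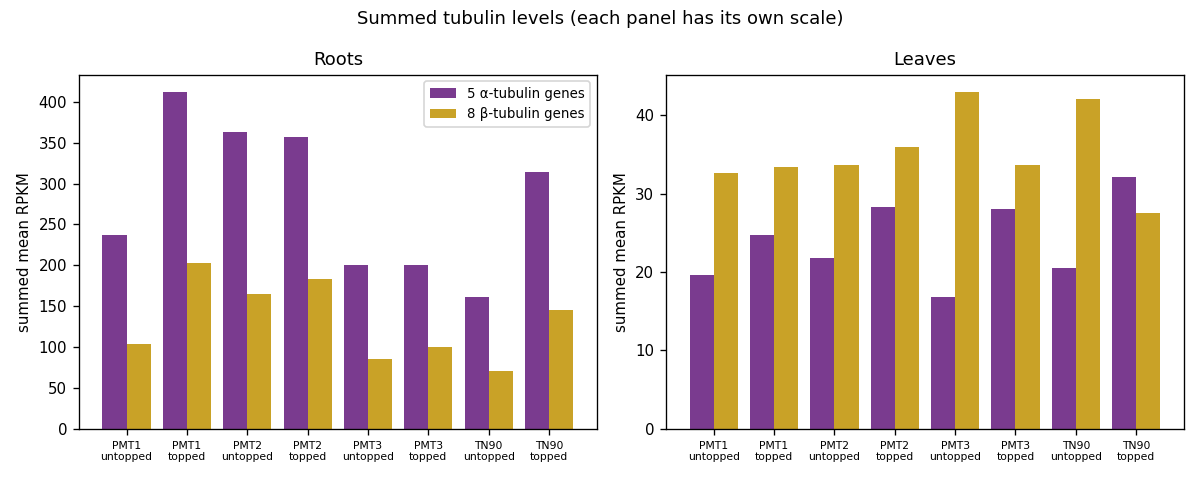
Summed mean RPKM (linear axes starting at 0, a separate scale for each tissue) of the 5 alpha-tubulin and the 8 beta-tubulin genes in each root and leaf group. Alpha exceeds beta in all 8 root groups, at 1.94 to 2.36 times, and beta exceeds alpha in every leaf group but topped TN90.

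Topping in roots was followed by higher tubulin levels in TN90 and PMT1 and by nearly level values in PMT2 and PMT3. NITAB020682 went from 65.7 to 141 RPKM in TN90, from 97.6 to 175 RPKM in PMT1, from 160 to 161 RPKM in PMT2, and stood at 82.8 RPKM before and after in PMT3. The PMT2 roots were thus as high untopped as topped, and the PMT3 roots low in both. These are also the lines whose plants carry contradictory treatment labels, 4 in PMT2 and 2 in PMT3, and the part of mixed labels in the level values was not tested. NITAB068249 had the same order, with 40.4 and 87.3 RPKM in TN90, 64.5 and 110 RPKM in PMT1, 105 and 104 RPKM in PMT2, and 48.9 and 52.9 RPKM in PMT3. Only in TN90 did these alpha-tubulins pass the fold used for counting, which was at least 2 on the scale of RPKM + 0.1 with at least 1 RPKM in either group (2.15- and 2.16-fold).

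By that rule 7 of 21 members were raised by topping in TN90 roots, 4 in PMT1, 1 in PMT2 and 2 in PMT3. Over the whole table the shares raised were 45.6% in TN90, 21.2% in PMT1, 12.2% in PMT2 and 26.5% in PMT3, so the members' counts were below or near those of the genes around them. No member fell by the rule in any genotype (0 of 21), against 6.07% of the table in TN90, 3.81% in PMT1, 2.89% in PMT2 and 5.83% in PMT3. The median fold of the members was 1.79 in TN90, 1.70 in PMT1, 1.01 in PMT2 and 1.03 in PMT3, beside table medians of 1.87, 1.35, 1.09 and 1.31. Topping moved the median of the table's log2 values by 0.66 in TN90, 0.44 in PMT1, 0.18 in PMT2 and 0.43 in PMT3. Relative to that shift, 1 member was raised in each genotype and 2 fell in TN90. On that scale 369 of 2075 genes were raised in TN90, 221 in PMT1, 184 in PMT2 and 317 in PMT3, and 424 fell in TN90. All 13 tubulins had folds above 1 in TN90 and in PMT1, and after centring 11 did in TN90 and 13 in PMT1. In PMT3, 9 of 13 tubulins were above 1, but only 2 after centring, so their direction there depended on the centring. In PMT2, 7 of 13 were above 1, and 4 after centring. Of the 2075 genes, 1462 had folds above 1 in TN90, 1354 in PMT1, 1248 in PMT2 and 1391 in PMT3. After centring, 1204, 1036, 934 and 1006 genes did. The median used for centring is that of genes the authors called different in roots. It can hold part of the response to topping itself, so the centred values are not corrected ones.

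The exception was NITAB096768, the beta-6 type gene. It went from 0.301 to 1.5 RPKM in TN90, from 0.642 to 2.36 RPKM in PMT1, from 0.585 to 2.10 RPKM in PMT2 and from 0.386 to 2.17 RPKM in PMT3. Every topped root group lay above every untopped one. The folds were 3.98, 3.32, 3.22 and 4.67, and it was the 1 member raised in all 4 genotypes, as were 7.95% of all genes in the table. Its level is low, and with a pseudocount of 1 RPKM or a minimum of 5 RPKM no member was counted in all 4 genotypes. After centring it was still raised in each, at 2.52-, 2.46-, 2.84- and 3.46-fold.

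The other beta-tubulins gave intermediate values. NITAB012546 went from 10.2 to 27.5 RPKM in TN90, from 17.3 to 37.8 RPKM in PMT1, from 32.7 to 38.1 RPKM in PMT2 and from 12.5 to 15.8 RPKM in PMT3. With 2.69- and 2.18-fold in TN90 and PMT1, it was raised in those genotypes, and the groups overlapped across genotypes because untopped PMT2 exceeded topped TN90. NITAB016756 was raised in PMT1 alone, from 24.2 to 50.7 RPKM (2.10-fold), with 17.1 and 33.1 RPKM in TN90. NITAB069809 was raised in TN90 alone, from 9.96 to 20.9 RPKM (2.09-fold), as was NITAB056399, from 5.56 to 12.3 RPKM (2.18-fold). NITAB011416, the leading beta-tubulin, stayed just under the rule, with folds of 1.99 in PMT1 and 1.79 in TN90. Whether folds differed between genotypes could not be tested on group means.

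Among motors and regulators, the kinesin NITAB061382 was raised in PMT1 alone, from 2.39 to 5.40 RPKM (2.21-fold), and went from 1.76 to 2.81 RPKM in TN90, from 2.94 to 3.77 RPKM in PMT2 and from 2.07 to 2.40 RPKM in PMT3. The kinesin NITAB007425 had 2.91 RPKM untopped and 5.66 RPKM topped in TN90, 4.74 and 7.74 RPKM in PMT1, 5.37 and 6.08 RPKM in PMT2 and 4.21 and 4.35 RPKM in PMT3, and was counted nowhere. The inhibitor gene NITAB042105 was raised in TN90, from 2.71 to 5.81 RPKM (2.10-fold), and in PMT3, from 1.61 to 3.51 RPKM (2.11-fold). In PMT1 it went from 3.46 to 5.56 RPKM and in PMT2 from 5.56 to 7.64 RPKM, so its topped value exceeded the untopped one in all genotypes. The cyclin NITAB056947, whose partner kinases such inhibitors act on, had folds of 1.34 in TN90, 1.28 in PMT1, 0.754 in PMT2 and 0.920 in PMT3.

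MAP70-1 and CDC48 took the other direction. NITAB040748 went from 5.61 to 3.68 RPKM in TN90, from 3.94 to 3.30 RPKM in PMT1, from 4.50 to 4.07 RPKM in PMT2 and from 5.00 to 4.71 RPKM in PMT3. NITAB064091 went from 3.70 to 2.87 RPKM in TN90, from 3.00 to 2.49 RPKM in PMT1, from 2.15 to 1.51 RPKM in PMT2 and from 3.14 to 2.56 RPKM in PMT3. Both were lower after topping in every genotype, by less than 2-fold, and these genes alone among the members had folds below 1 throughout. After centring, the cyclin NITAB056947 joined them, and in TN90 the fall passed 2-fold for MAP70-1 and CDC48.

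**Figure D3:**
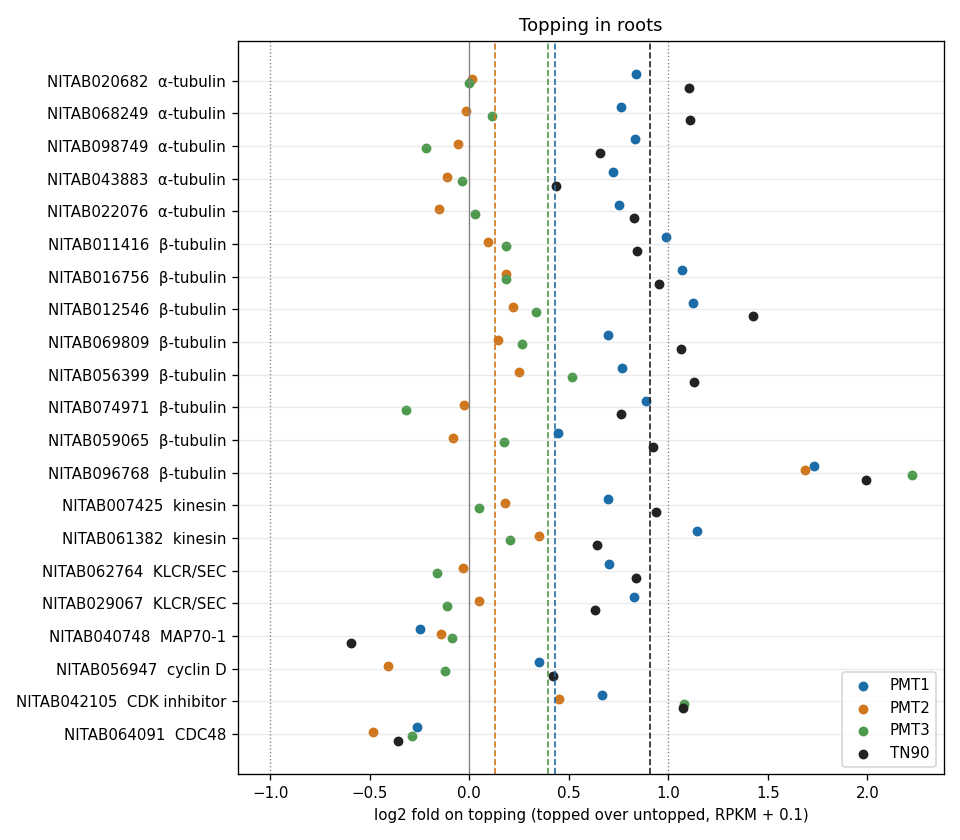
Log2 fold on topping in roots (topped over untopped, RPKM + 0.1) of the 21 genes, 1 point per genotype. Dashed lines mark the median log2 fold of all 2075 genes in each genotype, and dotted lines a 2-fold difference. The median of the 21 points is 0.84 in TN90, 0.76 in PMT1, 0.01 in PMT2 and 0.05 in PMT3, and NITAB096768 lies beyond 1 in all 4 genotypes.

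The lines were then set against TN90 of the same treatment. TN90 was untransformed, so suppression of PMT cannot be told apart here from transformation or from other differences of a line. The comparisons of one treatment share the same TN90 groups, so they are not independent of each other. In untopped roots the genotypes ranked PMT2, PMT1, PMT3, TN90 for 9 of 13 tubulins, and the share of the table with this order was not counted. After centring, the median log2 difference of the tubulins from TN90 was 0.55 in PMT2, 0.34 in PMT1 and 0.46 in PMT3. The order of PMT1 and PMT3 thus depended on the centring. NITAB020682 stood at 160 RPKM in PMT2, 97.6 in PMT1, 82.8 in PMT3 and 65.7 in TN90. The beta-tubulin NITAB059065 showed the widest gap, with 9.87 RPKM in PMT2, 4.48 in PMT1, 3.12 in PMT3 and 2.88 in TN90 (3.34-fold between PMT2 and TN90). The cyclin NITAB056947 stood at 10.9 RPKM in PMT2, 8.11 in PMT1, 5.88 in PMT3 and 4.62 in TN90.

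By the counting rule, 10 of 21 members were higher in untopped PMT2 roots than in untopped TN90 roots (38.3% of the table) and 0 were lower (8.63%). These were 8 tubulins, the cyclin NITAB056947 (2.33-fold) and the inhibitor gene NITAB042105 (2.01-fold). The tubulins among them were NITAB020682 (2.43-fold), NITAB068249 (2.59-fold), NITAB022076 (2.06-fold), NITAB016756 (2.06-fold), NITAB012546 (3.20-fold), NITAB069809 (2.40-fold), NITAB056399 (2.45-fold) and NITAB059065. The members had a median fold of 1.99, beside 1.65 for all genes. The table's median log2 value was 0.50 higher in untopped PMT2, and relative to it 2 members were higher, NITAB012546 (2.26-fold) and NITAB059065 (2.37-fold), and 1, CDC48, was lower, beside 434 higher and 469 lower of the 2075 genes. All 13 tubulins were above TN90 with and without this centring. Of the 2075 genes, 1315 were above TN90, and 1144 after centring.

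In the other untopped lines no member passed the rule, with 0 of 21 higher in PMT1 (8.77% of the table) and in PMT3 (5.54%), and 0 lower in PMT1 (3.08%) and in PMT3 (8.63%). The median member fold was 1.47 in PMT1 and 1.23 in PMT3, beside table medians of 1.24 and 0.887. The table's median log2 value stood 0.21 higher in PMT1 and 0.16 lower in PMT3 than in TN90. All 13 tubulins were above TN90 in untopped PMT1, and 11 of 13 in PMT3, or 13 after centring. Of the 2075 genes, 1343 were above TN90 in PMT1 and 792 in PMT3. After centring, 1150 and 1013 genes were.

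In topped roots 1 member passed the rule in the comparisons with TN90. This member, the beta-tubulin NITAB074971, was higher in topped PMT1, at 11.1 RPKM against 5.07 RPKM in TN90 (2.17-fold), where 4.14% of the table was higher. No member was lower in topped PMT1 (6.84% of the table), and none was higher or lower in topped PMT2 (5.01% and 6.8%) or topped PMT3 (4.92% and 17.3%). The median member fold was 1.39 in PMT1, 1.15 in PMT2 and 0.774 in PMT3, beside table medians of 0.985, 1.08 and 0.765. In untopped roots it was 1.47, 1.99 and 1.23, so before centring the median in PMT3 changed sides. After centring, the median log2 difference of the members in PMT3 was 0.46 untopped and 0.01 topped, with 11 members above TN90 and 10 below when topped. On that scale it did not change sides. In topped PMT3, 12 of 13 tubulins stood below TN90, and 9 of 13 after the table's shift of -0.38 in log2 value was removed. Of the 2075 genes, 1491 stood below TN90 there, and 1041 after that shift was removed.

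Ranked over the 8 root groups, untopped TN90 was the lowest group for 16 of 21 members and topped PMT1 the highest for 13, beside 24.9% and 17.2% of the table. With each group centred on the table's median, the counts were 12 and 10 members, beside 22.9% and 12.8% of the table. The centred ranks were added after seeing the data. The genes were selected on root comparisons that included untopped TN90, so its low rank is not independent of that selection. Members with a common tomato match may share reads, so their ranks are not independent. Topped PMT2 was highest for 4 members, beside 26.8% of the table, and untopped PMT2 for 2 (NITAB056947 and NITAB059065), beside 11.4%. Untopped TN90 was highest for 2, MAP70-1 and CDC48, beside 15.4%. Topped PMT1, untopped PMT2 and topped PMT2 were each among the highest 4 groups for 19 members, and topped TN90 for 18, where the table had 65.9%, 57.5%, 65% and 75.1% of its genes. Both PMT3 groups were among them for 2 members each, beside 29% of the table for untopped and 38.6% for topped PMT3. After centring the counts were 19, 18, 11 and 5, beside 52.3%, 51.3%, 51% and 55.1% of the table. Untopped PMT3 was then among the highest 4 for 14 members, beside 48%. The places of topped TN90, topped PMT2 and untopped PMT3 thus depended on the centring. Over the 8 root groups the ratio of the highest to the lowest value was 1.70 for MAP70-1, 2.06 for the alpha-tubulin NITAB043883, 4.75 for the inhibitor gene NITAB042105 and 7.84 for NITAB096768.

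**Figure D4:**
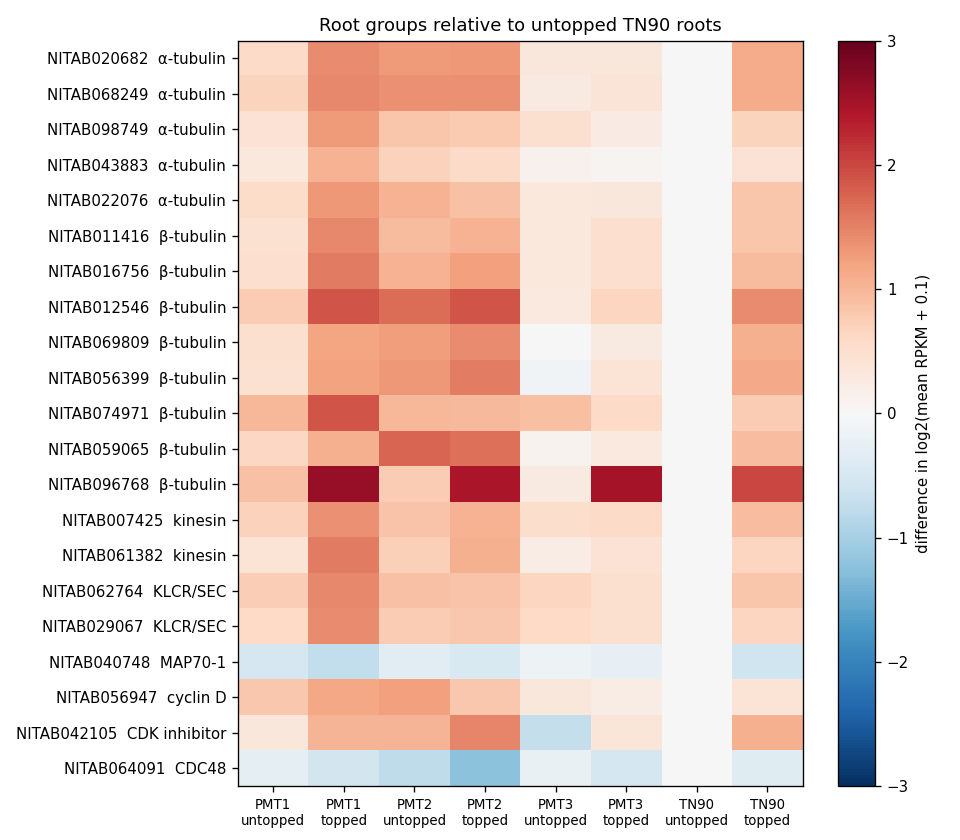
Difference in log2(mean RPKM + 0.1) of each gene (rows) in each of 8 root groups (columns) from untopped TN90 roots, which are at 0 by construction. Topped PMT1, topped TN90 and both PMT2 columns are red for the tubulins and kinesins. Both PMT3 columns are mostly pale apart from NITAB096768 in the topped group. MAP70-1 and CDC48 lie below 0 in every other group, though only by 0.16 and 0.23 in untopped PMT3.

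In leaves topping was followed by few differences. By the rule, 0 of 21 members were raised in PMT1 (3.37% of the table) and in PMT2 (2.65%), 1 in PMT3 (4.29%) and 1 in TN90 (7.61%). One member fell in PMT1 (4.05%), 3 fell in TN90 (12.4%), and 0 fell in PMT2 (1.64%) and PMT3 (1.69%). The members had a median fold of 1.34 in TN90, 1.17 in PMT1, 1.09 in PMT2 and 1.08 in PMT3, beside table medians of 1.05, 1.02, 1.01 and 1. Among the members, only NITAB011416 and NITAB020682 exceeded 10 RPKM in any leaf group.

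The leaf beta-tubulin NITAB011416 went from 27.2 to 10.8 RPKM in TN90 (0.401-fold) and in PMT3 from 29.0 to 19.2 RPKM, with 19.2 and 18.2 RPKM in PMT1 and 18.7 and 18.1 RPKM in PMT2. Untopped TN90 and PMT3 were the high groups and topped TN90 the lowest. NITAB012546 went the opposite way in TN90, from 2.69 to 6.42 RPKM (2.34-fold), and from 3.35 to 4.31 RPKM in PMT1, 4.35 to 5.62 RPKM in PMT2 and 2.59 to 3.42 RPKM in PMT3. The alpha-tubulin NITAB043883 went from 3.01 to 6.62 RPKM in PMT3 (2.16-fold) and from 4.14 to 3.67 RPKM in TN90. The ratio of alpha to beta sums in leaves was 0.487 untopped and 1.17 topped in TN90, 0.392 and 0.833 in PMT3, 0.601 and 0.743 in PMT1, and 0.650 and 0.786 in PMT2. It was higher after topping in all 4 genotypes.

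MAP70-1 and CDC48 were the other leaf genes that passed the rule. NITAB040748 went from 2.25 to 0.775 RPKM in TN90 (0.372-fold) and from 1.89 to 0.671 RPKM in PMT1 (0.388-fold), but from 1.18 to 1.45 RPKM in PMT2 and from 1.44 to 1.96 RPKM in PMT3. The genotypes thus moved in different directions, and the difference was not tested. NITAB064091 went from 1.81 to 0.0566 RPKM in TN90 (0.0819-fold), with 1.48 and 1.05 RPKM in PMT3, 0.562 and 0.542 RPKM in PMT1, and 0.534 and 0.507 RPKM in PMT2. For topped TN90 leaves 3 libraries are listed and 4 samples labelled, and which of them entered the mean is not given in the sources used here. Against TN90 leaves of the same treatment, CDC48 was the 1 member lower in untopped PMT1 (0.346-fold, 4.43% of the table lower) and the 1 lower in untopped PMT2 (0.332-fold, 8.63%). In topped PMT3 leaves, 2 members were higher than in topped TN90 leaves (11.8% of the table), CDC48 (7.35-fold on the scale of RPKM + 0.1) and MAP70-1 (2.35-fold).

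**Figure D5:**
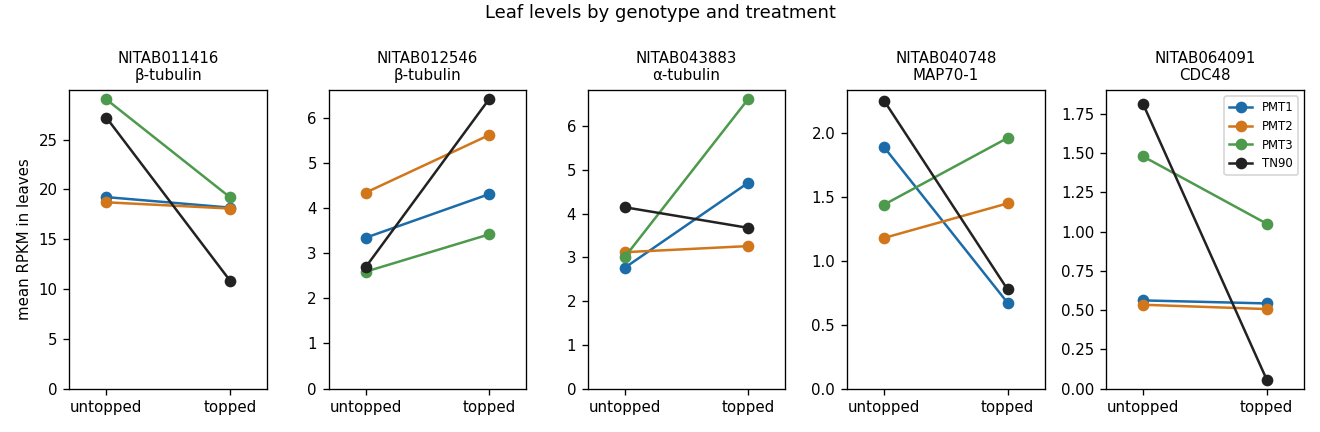
Mean RPKM in untopped and topped leaves (linear axes starting at 0, a separate scale for each gene) of the 5 genes that passed the 2-fold rule on topping in a leaf comparison, 1 line per genotype. TN90 falls steeply in NITAB011416, NITAB040748 and NITAB064091 and climbs in NITAB012546, and PMT3 climbs in NITAB043883.

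Other genes of growth and division in the table were counted by the same rule. Over the whole table, topping in roots raised 45.6% of genes in TN90, 21.2% in PMT1, 12.2% in PMT2 and 26.5% in PMT3. In PMT1 3.81% fell, and in PMT3 5.83%. In untopped PMT2 roots 38.3% were higher than in TN90. Of 48 histone genes, whose proteins package DNA, 47 were raised by topping in TN90 roots, 5 in PMT1, 0 in PMT2 and 8 in PMT3, with medians of 3.18-, 1.76-, 1.19- and 1.70-fold, where the 13 tubulins had 1.93-, 1.78-, 1.01- and 1.13-fold. In untopped PMT2 roots 46 histone genes were higher than in TN90, with a median of 3.09-fold against 2.06-fold for the tubulins. After centring, 25 histone genes were raised by topping in TN90 roots, 0 in each of the lines, and 30 were higher in untopped PMT2. On that scale 369 of the 2075 genes were raised in TN90, and 434 were higher in untopped PMT2. Of 39 genes of growth and of the actin cytoskeleton or cell wall, 21 were raised by topping in TN90 roots, 9 in PMT1, 2 in PMT2 and 6 in PMT3. Of these 39 genes, 1 fell in PMT1 and 3 in PMT3. After centring, 9 were raised in TN90, 3 in PMT1, 2 in PMT2 and 2 in PMT3, while 4, 5, 0 and 5 fell. Among the 39 genes were 14 expansins, which loosen the cell wall. Of the expansins, 11 were raised in TN90, 6 in PMT1, 0 in PMT2 and 4 in PMT3, and 12 were higher in untopped PMT2 than in untopped TN90 roots. Both ribonucleotide reductase genes, whose enzyme supplies deoxynucleotides, were raised in TN90 alone, with a median of 2.67-fold. Of 4 DNA helicase genes, 3 fell in PMT3, with medians of 0.451-fold in PMT3, 0.638-fold in PMT1, 0.818-fold in TN90 and 1.12-fold in PMT2, and 1 was raised in TN90.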

How the data were processed

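Leaf and root RNA of 3 PMT-RNAi lines and of TN90 was sequenced by the authors as paired reads from stranded total RNA libraries. They mapped reads to an updated N. tabacum genome in CLC Genomics Workbench at similarity and length fractions of 0.95, with up to 10 hits per read. The deposited RPKM values are the authors' means per group, for 2075 genes they called in roots (edgeR's exact test, p of at most 0.05, fold of at least 2). Read totals and the percent of reads mapped were deposited per library. Depth is known only from these totals, and gene identifiers were used as given, without coordinates.

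Samples were grouped by title (genotype, tissue) and treatment label. Members were matched by annotation words, and growth words at word starts only. Folds were differences of log2(RPKM + 0.1), counted at 2-fold or more with at least 1 RPKM in either group. Group means allow no test, interval or count of plants. Named genes were, in each role, up to 4 with the highest root mean, with the 3 largest and the 3 smallest in topping fold and in root-to-leaf ratio, and others were named after their values were seen. The members, lists and rules were chosen with earlier results of these data known. Alternatives were other pseudocounts, minimums and folds, and centring on the table's median. Python 3.11.15, pandas 2.3.3 and numpy 2.4.6 were used, and the counting was tested on simulated data.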

Additional observations from a re-analysis of the deposited data

Results flagged for a closer look

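Single libraries stood apart from the rest of their group in read total or percent mapped, by the gap to the nearest library over the group's range. Of 30 groups of library values tested, 8 had such a library, where chance gives about 1 in 20. A low share of mapped reads was seen in topped PMT1 leaves (92.2%), topped PMT2 leaves (90.4%), untopped PMT2 leaves (91.7%) and untopped PMT3 leaves (88.4%), and a high one in untopped PMT3 roots (86.3%). High read totals were seen in topped PMT2 leaves (508326446), untopped PMT3 leaves (517291516) and untopped PMT2 roots (138184962). The untopped PMT2 root group is the one with 10 members above TN90. The part of these libraries in the group means was not tested.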

How the results depend on the processing

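Of 158 alternative values for 24 counts of members, 125 stayed within 1.5 times the count reported and 33 did not. Where the count reported was 0, a stricter setting, such as a minimum of 5 RPKM, could give only 0. Part of the 125 was therefore fixed in advance. At a fold of at least 1.5, topping raised 17 members in PMT1 roots and 17 in TN90 roots. It raised 1 in PMT1 leaves, 3 in PMT3 leaves and 4 in TN90 leaves. The table's own median fold on topping was 1.87 in TN90 roots and 1.35 in PMT1 roots, and 1.65 for untopped PMT2 over TN90 roots. Shares of the table were not counted at 1.5-fold, so the counts at 1.5-fold cannot be set against it. At that fold, in roots, 8 members were higher in untopped PMT1 than in TN90, 18 were higher and 1 lower in untopped PMT2, 3 higher and 1 lower in untopped PMT3, 10 higher in topped PMT1, 1 higher and 1 lower in topped PMT2, and 7 lower in topped PMT3. With groups centred on the table's median, topping raised 1 member each in PMT1, PMT3 and TN90 roots, 2 were higher and 1 lower in untopped PMT2, 1 was higher in untopped PMT3, and 5 were higher in every root than in every leaf group. With a pseudocount of 1 RPKM, topping raised 0 members in PMT2 roots, 1 in PMT3 roots, 4 in TN90 roots, 0 in all 4 genotypes and 0 in PMT3 leaves, and 0 were higher in topped PMT1. With a pseudocount of 0.01 RPKM, 1 was higher in untopped PMT1. With a minimum of 5 RPKM, 0 were raised in PMT2 roots, in PMT3 roots and in all 4 genotypes, and without a minimum 4 in TN90 leaves. Without PMT2 and PMT3, an alternative added after seeing the data because their labels conflict, 2 members were raised in every genotype left.

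The deposited values used are means per group, and leaving out single replicates was therefore not run. No paired analysis was possible because the columns carry no replicate. Values under 1 RPKM, as of most members in leaves, rest on few reads and their depth is unknown.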
